A study of Dorcoceras hygrometricum with 9 samples.

Results

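Leaves of the resurrection plant Boea hygrometrica (listed as Dorcoceras hygrometricum) that had dried to a relative water content (RWC) of 70% were compared with hydrated leaves, to describe the early transcript response to water loss. The members are 6 of the 9 samples of the series: the 3 titled HD, taken as the hydrated state that the design text names, and the 3 titled 70% RWC. All came from leaf tissue of potted plants. The groups differ in drying alone, as far as the labels say, and no genotype, plant age, drying time or hour of sampling is given in the sources used here. The remaining 3 samples, dried to 10% RWC, entered the fit for its estimate of spread, and their levels are set beside some results without a comparison. Samples of a state are biological replicates by the design text. How many plants stand behind each is not given, so the p-values may measure technical spread alone. The account covers all genes and the deposited Gene Ontology (GO) columns, and it leaves mainly aside the best-known protective and photosynthesis genes.

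A resurrection plant survives the loss of most of the water in its leaves and resumes growth after rewatering. In drying leaves of such plants, photosynthesis and growth are known to be shut down early, while soluble sugars, protective proteins and antioxidants are built up before the tissue is dry. Boea hygrometrica keeps most of its chlorophyll through this cycle.

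Expression was measured as reads aligned uniquely to each gene model, and levels are given as CPM, the read count relative to the library's total on the usual sequencing scale, after correction for library composition. Values with ± are mean ± SD of 3 libraries. In the genes tested, the libraries held 6654601 to 7423965 such reads when hydrated and 7168793 to 7324049 at 70% RWC. Between 18402 and 18563 genes had a read in a hydrated library, and between 17952 and 18176 at 70% RWC. Replicates 2 and 3 were more alike than either was to replicate 1 in both states. A chi-square per gene was 1.36 between hydrated replicates 2 and 3 and 1.26 at 70% RWC, against 4.75 to 8.05 for pairs with replicate 1. CPM values compare a gene between libraries, and a ranking of different genes by CPM, used below to choose genes and to give summed shares, counts reads and so favours longer coding sequences. Levels of a pair of genes are set side by side per kilobase of coding sequence.

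The leaf label was checked with marker genes. Of 14 tested mesophyll markers, 10 fell and 4 rose. The 4 that rose are early light-induced proteins, found by the list's words for chlorophyll-binding proteins. The other 10, among them light-harvesting proteins and Rubisco activase, went from a summed level of 46274 to 58720 CPM when hydrated to 4881 to 5985 CPM at 70% RWC. Guard cell markers summed to 34.8 to 40.2 CPM when hydrated and 14.4 to 15.9 CPM at 70% RWC, with 3 of 3 lower. Xylem and secondary wall markers went from 157 to 168 CPM to 55.2 to 60.9 CPM, with 4 of 5 lower, and both epidermal markers fell, from a sum of 20.2 to 23.2 CPM to 3.62 to 4.68 CPM. The sole phloem marker rose from 3.41 to 7.54 CPM to 15.02 to 15.9 CPM. Root markers reached at most 0.588 CPM and seed markers at most 1.39 CPM, and 3 of the 10 seed markers had 0 reads in the 6 libraries. In bulk leaf RNA, fewer cells of a type and less RNA per cell cannot be told apart.

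Of 14585 genes tested, 10284 (70.5%) passed edgeR's quasi-likelihood test at a Benjamini-Hochberg adjusted p of 0.05, termed called below. Of the tested genes, 5043 (34.6%) were higher and 5241 (35.9%) lower at 70% RWC. For 72.8% of tested genes the 3 hydrated and the 3 dried libraries did not overlap. About as many calls were under 2-fold as above: 5095 were under 2-fold, 2838 of them higher and 2257 lower. A change of 2-fold or more was reached by 5189 genes (35.6%), with 2205 higher (15.1%) and 2984 lower (20.5%).

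The balance between gains and losses depended on the size of the change. Losses outnumbered gains from 2-fold, with 1508 lower and 981 higher at 4-fold and 740 lower and 571 higher at 8-fold. The order was turned at 32-fold and above, with 229 genes higher and 200 lower at 32-fold and 155 higher and 104 lower at 64-fold. The median log2 fold change was -0.01, with quartiles of -0.77 and 0.57. Scaling to total counts in place of library composition moved that median to -0.11, and gene lists whose balance that scaling or another setting turned are given below without a direction.

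**Figure D1:**
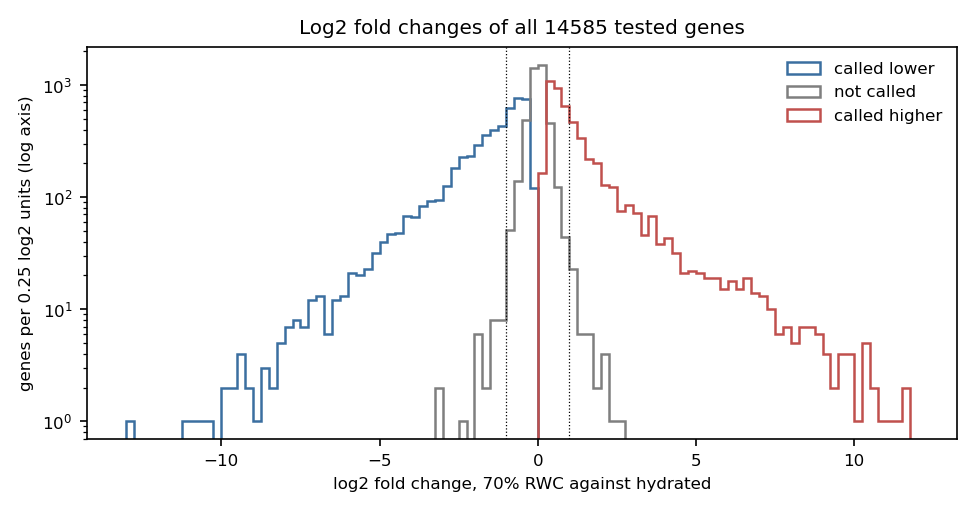
Log2 fold change at 70% RWC against hydrated leaves (x axis) and number of tested genes per 0.25 log2 units (y axis, log scale), drawn as a line each for genes called lower, not called and called higher. The dotted lines mark 2-fold changes, which 2984 called genes passed downward and 2205 upward.

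The called genes made up most of the measured transcripts, and their weights were exchanged. Genes called higher held 26.8, 25.3 and 25.4% of all CPM in the hydrated libraries and 67.2, 67.4 and 67.4% at 70% RWC. Genes called lower held 59.6, 61.6 and 61.5% when hydrated and 20.2% in each library at 70% RWC. These genes were chosen by the same contrast, so the shares describe size and carry no test. The 571 genes at least 8-fold higher went from 0.812 ± 0.00574% of CPM to 21.4 ± 0.9303%, and the 740 genes at least 8-fold lower from 15.6 ± 1.33% to 1.16 ± 0.104%.

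The transcript pool was about as concentrated in both states. The 10 genes with the highest CPM held 10.4 ± 0.851% of CPM when hydrated and 9.38 ± 0.462% at 70% RWC, and 495 ± 46.3 against 543 ± 33.3 genes made up 50% of CPM. Best-known protective and photosynthesis genes, found by words in their descriptions, held 13.2 ± 1.12% when hydrated and 9.18 ± 0.676% at 70% RWC. This list pools both kinds, with 37.3% of 153 tested members higher and 45.1% lower, beside 34.6% and 35.9% of all tested genes. The mesophyll markers alone went from 5.57 ± 0.601% to 0.535 ± 0.0452%, so the sum describes neither kind by itself. Genes with a database match but no informative description went from 26.96 ± 0.404% to 31.9 ± 0.243%.

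The 8 largest gains in CPM outside the excluded list, among genes with an informative description, were mostly genes of sugar use and of defence-type proteins. A class IV chitinase, an enzyme that cuts chitin, stood at 931, 978 and 973 CPM in the hydrated libraries and 6818, 6791 and 6788 CPM at 70% RWC (Bhs342_021V1.1; log2 fold change 2.82 ± 0.06, adjusted p = 7.51e-17). A beta-primeverosidase, which releases scent compounds from their sugar conjugates in tea, stood at 3382, 3527 and 3396 CPM in the hydrated libraries and 9079, 9367 and 9304 CPM at 70% RWC (Bhs1325_004V1.1; log2 fold change 1.43 ± 0.07, adjusted p = 2.31e-12). In both genes every hydrated library was below every dried one, as the rule that chose them required.

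Sucrose synthase 2, which cleaves sucrose to fructose and a nucleotide sugar, stood at 91.8, 85.999 and 87.2 CPM in the hydrated libraries and 5553, 5521 and 5450.2 CPM at 70% RWC (Bhs983_003V1.1; log2 fold change 5.96 ± 0.07, adjusted p = 1.79e-19). A putative sugar transporter stood at 105, 90.97 and 98.2 CPM in the hydrated libraries and 3024, 3137 and 3118 CPM at 70% RWC (Bhs1687_016V1.1; log2 fold change 4.98 ± 0.08, adjusted p = 1.32e-18). Among these 8 genes, this pair had the largest fold gains. Osmotin, a thaumatin-like protein of the pathogenesis-related class, stood at 221, 331 and 332 CPM in the hydrated libraries and 2634, 3264 and 3577 CPM at 70% RWC (Bhs2344_009V1.1; log2 fold change 3.42 ± 0.23, adjusted p = 2.88e-06). The same rule required the lack of overlap between its hydrated and dried libraries. Per length, sucrose synthase 2 went from 36.4 to 2267 CPM per kilobase of coding sequence and the sugar transporter from 48.8 to 1541 CPM per kilobase of coding sequence.

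The other 3 gains were smaller in fold. Glycine-rich protein 1 increased from 5184 ± 309.6 to 10068 ± 282 CPM (Bhs4783_003V1.1; log2 fold change 0.96 ± 0.07) and pathogenesis-related protein 10 from 4006 ± 5.64 to 8570.4 ± 170.01 CPM (Bhs1973_001V1.1; log2 fold change 1.10 ± 0.06). The gene matched to bdn1, a dehydrin whose description lacks that word and so missed the excluded list, went from 5803 ± 746 to 10153 ± 226 CPM (Bhs1119_057V1.1; log2 fold change 0.81 ± 0.08, adjusted p = 8.19e-08). At 10% RWC glycine-rich protein 1 stood at 9756 ± 617 CPM and osmotin at 3448 ± 655 CPM, against 105 ± 8.86 CPM for the beta-primeverosidase and 426 ± 20.4 CPM for the sugar transporter.

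A pair of genes with no informative description gained more CPM than any of these. Bhs558_007V1.1 stood at 46.9, 43.9 and 41.8 CPM in the hydrated libraries and 11698, 12893 and 12862 CPM at 70% RWC (log2 fold change 8.14 ± 0.09, adjusted p = 1.79e-19). Bhs1369_009V1.1 stood at 21.1, 16.5 and 17.5 CPM in the hydrated libraries and 8739, 9945 and 10226 CPM at 70% RWC (log2 fold change 9.03 ± 0.12, adjusted p = 3.59e-19). In both genes every dried library was over 100 times the highest hydrated one. Their models span scaffold 558, positions 86712 to 87446, minus strand, and scaffold 1369, positions 364358 to 366477, plus strand, in the assembly of the deposited files, for which no version was given. The coding length is 633 bases for the former and 1608 bases for the latter, and reads covered 99.8% and 99.9% of the models at 70% RWC.

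The 8 largest losses were led by photosynthesis genes that the excluding words had missed. Plastidic aldolase of the Calvin cycle stood at 3323, 4233 and 4142 CPM in the hydrated libraries and 103, 124 and 127 CPM at 70% RWC (Bhs168_023V1.1; log2 fold change -5.05 ± 0.11, adjusted p = 1.79e-15). Glyceraldehyde-3-phosphate dehydrogenase B, also of that cycle, stood at 3605, 3718 and 3697 CPM in the hydrated libraries and 184, 177 and 169 CPM at 70% RWC (Bhs3223_009V1.1; log2 fold change -4.38 ± 0.08, adjusted p = 4.68e-18). The match to photosystem protein PsbP went from 2838 ± 70.5 to 239 ± 9.22 CPM (Bhs1317_004V1.1), the antenna protein CP29 from 2778 ± 723 to 323 ± 46.1 CPM (Bhs129_070V1.1), and a cyclase of chlorophyll synthesis from 2654 ± 8.98 to 363 ± 9.17 CPM (Bhs32_068V1.1). All 5 fell with log2 fold changes between -5.05 and -2.87. A gene whose match is named NPCA1 alone went from 2853 ± 235 to 223 ± 23.8 CPM (Bhs1750_004V1.1; log2 fold change -3.67 ± 0.11).

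The other losses were partial. A secretory peroxidase stood at 9249, 7989 and 8421 CPM in the hydrated libraries and 5089, 4954 and 4881 CPM at 70% RWC (Bhs14030_001V1.1; log2 fold change -0.78 ± 0.07, adjusted p = 1.06e-08). Galactinol synthase 2, which makes the donor for raffinose-family sugars, stood at 8623, 9356 and 8769.5 CPM in the hydrated libraries and 5378, 5760.5 and 5904 CPM at 70% RWC (Bhs17782_001V1.1; log2 fold change -0.65 ± 0.07, adjusted p = 1.10e-07). In both, every dried library was below every hydrated one, as the rule that chose them required. Among genes with no informative description, Bhs508_001V1.1 fell from 5793 ± 978 to 382 ± 78.9 CPM (log2 fold change -3.92 ± 0.24) and Bhs784_020V1.1 from 5019.8 ± 336 to 1469 ± 74.3 CPM (log2 fold change -1.77 ± 0.07). The former stood at 11.1 ± 3.83 CPM at 10% RWC and the latter at 7888 ± 503 CPM.

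**Figure D2:**
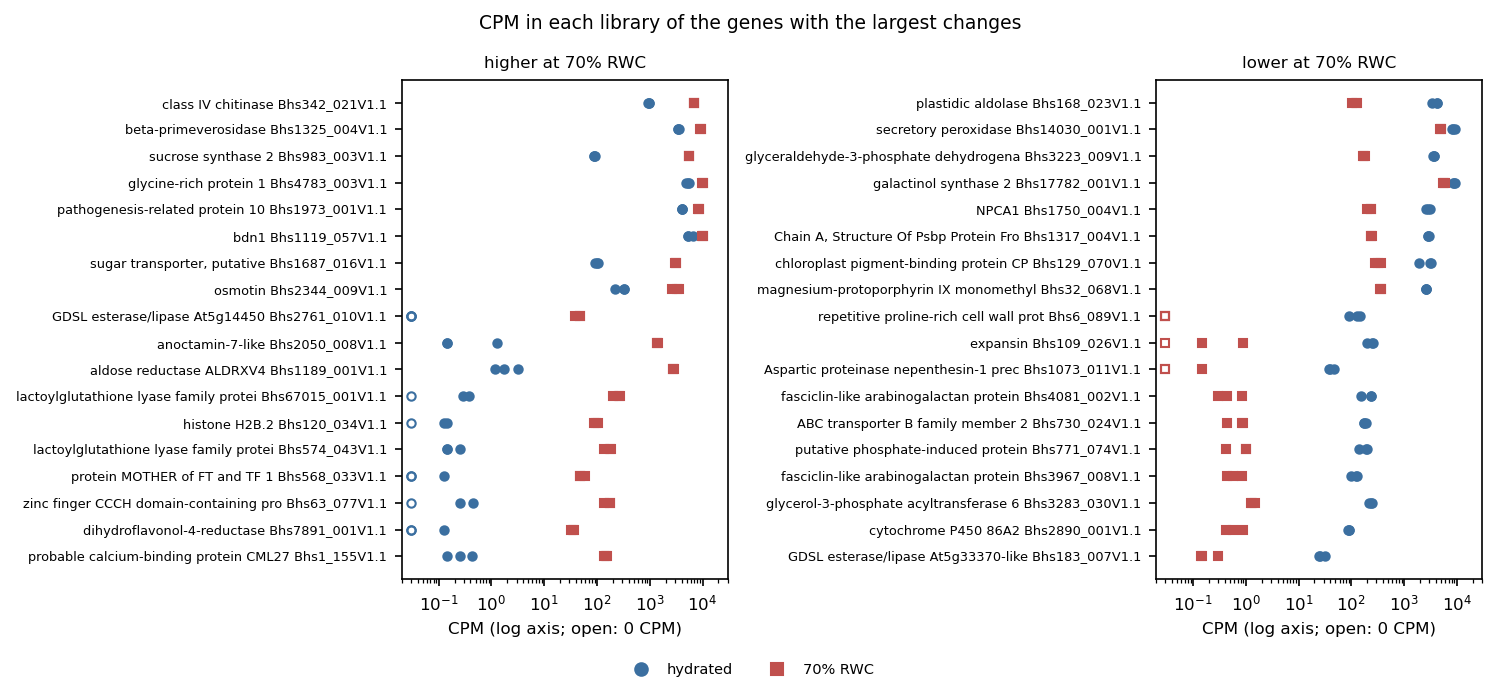
CPM (x axis, log scale) in each of the 3 hydrated (circles) and 3 dried (squares) libraries for the genes with the largest gains and losses in CPM and the largest fold changes, with open symbols at the left edge for 0 CPM. In every gene the circles and squares do not overlap, by the rule that chose them, and the gains in fold start from under 4 CPM in all hydrated libraries.

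The largest fold gains came from near-silent genes of varied function. A GDSL esterase, of a family of lipid hydrolases, had 0 reads in all hydrated libraries and 39.1, 47.4 and 48.5 CPM at 70% RWC (Bhs2761_010V1.1), which is at least 325-fold higher with a floor of 3 reads over the group. A match to anoctamin 7, of a family known in animals as ion channels and lipid scramblases, went from 0.522 ± 0.654 to 1368 ± 32.9 CPM (Bhs2050_008V1.1; log2 fold change 11.23 ± 0.20, adjusted p = 1.01e-15). The match to ALDRXV4, an aldose reductase of the resurrection plant Xerophyta viscosa, went from 2.02 ± 1.05 to 2811 ± 53.2 CPM (Bhs1189_001V1.1; log2 fold change 10.39 ± 0.15, adjusted p = 1.23e-18). Each of these stood at under 4 CPM in every hydrated library.

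Among the rest were a pair of lactoylglutathione lyases, enzymes that remove the toxic by-product methylglyoxal, at 0.226 to 247 CPM (Bhs67015_001V1.1; log2 fold change 9.96 ± 0.26) and 0.181 to 165 CPM (Bhs574_043V1.1; log2 fold change 9.68 ± 0.37). Reads covered 41.2% of each model at 70% RWC. Reads that match both genes are not in the unique counts, so the level given for each is uncertain. A calmodulin-like protein, CML27, rose from 0.276 ± 0.1405 to 147 ± 10.4 CPM (Bhs1_155V1.1; log2 fold change 8.96 ± 0.18) and zinc finger CCCH protein 20 from 0.232 ± 0.222 to 163 ± 23.3 CPM (Bhs63_077V1.1; log2 fold change 9.36 ± 0.39). Histone H2B.2 had 2 reads in the hydrated libraries together and 86.1, 94.99 and 103 CPM at 70% RWC (Bhs120_034V1.1; reads of the lower to the higher state in a ratio of 9.77e-04, exact 95% interval 1.18e-04 to 0.00353). MOTHER OF FT AND TFL1, a regulator of seed germination in Arabidopsis, had 1 hydrated read and 47.6, 48.6 and 59.9 CPM at 70% RWC (Bhs568_033V1.1; reads of the lower to the higher state in a ratio of 8.88e-04, exact 95% interval 2.25e-05 to 0.00496). A dihydroflavonol reductase of the anthocyanin pathway had 1 hydrated read and 36.6, 32.6 and 34.9 CPM (Bhs7891_001V1.1). MOTHER OF FT AND TFL1 stood at 107 ± 13.5 CPM at 10% RWC and the dihydroflavonol reductase at 0.815 ± 0.116 CPM.

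The largest fold losses were mostly genes of the cell wall and of the leaf surface. A repetitive proline-rich wall protein stood at 92.1, 144 and 126 CPM when hydrated and had 0 reads at 70% RWC (Bhs6_089V1.1), which is at least 836-fold lower with the same floor. An expansin, which loosens walls in growing cells, went from 235 ± 33.9 to 0.343 ± 0.474 CPM (Bhs109_026V1.1; log2 fold change -9.37 ± 0.32, adjusted p = 4.36e-10). Fasciclin-like arabinogalactan proteins of the cell surface went from 208 ± 45.3 to 0.523 ± 0.2799 CPM (Bhs4081_002V1.1) and from 116 ± 13.9 to 0.621 ± 0.199 CPM (Bhs3967_008V1.1). Little of these wall transcripts was left in any dried library.

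Genes of cutin synthesis stood beside them. Glycerol-3-phosphate acyltransferase 6 went from 233 ± 15.7 to 1.35 ± 0.113 CPM (Bhs3283_030V1.1; log2 fold change -7.42 ± 0.12, adjusted p = 2.81e-18), and CYP86A2, a fatty acid hydroxylase, from 89.6 ± 1.16 to 0.629 ± 0.236 CPM (Bhs2890_001V1.1; log2 fold change -7.12 ± 0.19, adjusted p = 9.67e-16). Another GDSL esterase went from 26.9 ± 3.77 to 0.193 ± 0.0864 CPM (Bhs183_007V1.1). The epidermal markers fell with these genes, from a sum of 20.2 to 23.2 CPM to 3.62 to 4.68 CPM, and their part in the result was not tested. The remaining large losses were ABC transporter B2 at 181 to 0.718 CPM (Bhs730_024V1.1), a phosphate-induced protein at 176 to 0.824 CPM (Bhs771_074V1.1) and an aspartic proteinase with 1 read left at 70% RWC (Bhs1073_011V1.1; reads of the lower to the higher state in a ratio of 0.00116, exact 95% interval 2.93e-05 to 0.00648).

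Some genes were read in one state alone. Among tested genes, 41 had 0 reads in the hydrated libraries, of which 38 were called higher, and 54 had 0 reads at 70% RWC, of which 47 were called lower. After the GDSL esterase, the gains from 0 reads that reached the highest CPM included a C-repeat binding factor of the cold and drought response at 12.2, 14.2 and 16.1 CPM (Bhs80_007V1.1), an EID1-like F-box protein at 11.7, 11.4 and 16.3 CPM (Bhs63_060V1.1), and a putative triacylglycerol lipase at 4.45, 6.29 and 6.63 CPM (Bhs420_032V1.1). These are at least 102-fold, at least 95.01-fold and at least 41.8-fold higher.

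A pair of genes that match mobile elements ranked between the F-box protein and the lipase among these gains. A match to an endonuclease and reverse transcriptase stood at 7.93, 10.2 and 9.72 CPM at 70% RWC (Bhs771_001V1.1) and a Gag-Pol polyprotein at 9.18, 5.85 and 7.36 CPM (Bhs183_017V1.1), both from 0 reads in all hydrated libraries. At 10% RWC they stood at 3.53 ± 0.319 CPM and 13.1 ± 1.39 CPM.

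In the other direction, a feruloyl transferase of suberin synthesis stood at 13.3, 19.6 and 19.6 CPM when hydrated (Bhs18_070V1.1), a phytochrome kinase substrate at 14.2, 15.8 and 12.9 CPM (Bhs1067_005V1.1), and a silicon transporter at 15.1, 13.1 and 13.97 CPM (Bhs20_079V1.1). A pectate lyase stood at 10.3, 11.6 and 10.7 CPM (Bhs4397_004V1.1) and another expansin at 9.58, 10.8 and 8.09 CPM (Bhs6677_001V1.1). All had 0 reads in the 3 dried libraries, which makes them at least 121-fold, at least 99.1-fold, at least 97.3-fold, at least 75.7-fold and at least 65.8-fold lower.

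To describe functions, 56 lists of genes were formed from words in the descriptions. More members were higher than lower in 26 lists, more were lower in 29, and 1 list was even. The majority direction was the same in every setting tried for 43 lists, 17 of them higher and 26 lower. In the other 13 (DNA repair, amino acid breakdown, calcium, chromatin modifiers, cytokinin, defence, mRNA decay, nucleolus, peroxisome, glycosyltransferases, starch, energy kinases, thiol and redox enzymes) it turned or became even in at least 1 setting, and they are given no direction. Each count below reads against 34.6% of all tested genes called higher and 35.9% called lower, and each median against -0.01.

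**Figure D3:**
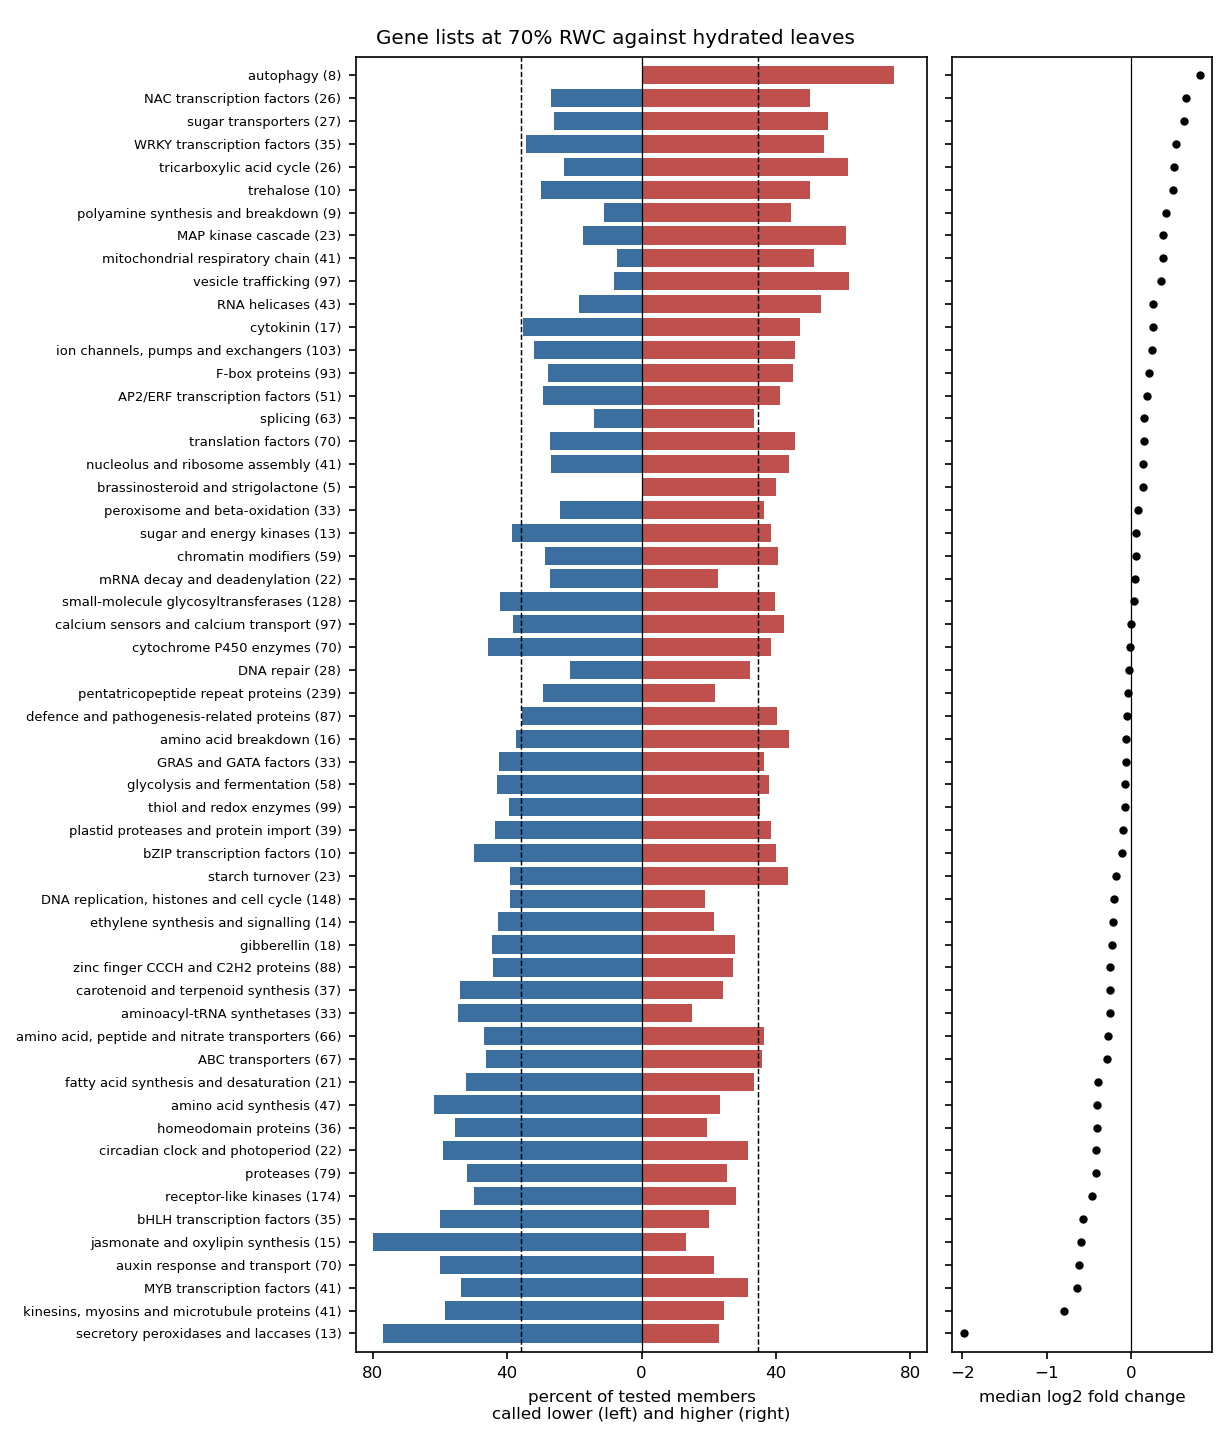
Percent of tested members called lower (bars to the left) and higher (bars to the right) at 70% RWC in 56 gene lists, with the number tested in brackets, and the median log2 fold change of each list (points). Dashed lines mark the percent of all tested genes called in each direction, 35.9% lower and 34.6% higher, and the lists run from autophagy at the top, median 0.81, to secretory peroxidases and laccases at the bottom, median -1.98.

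Transcription factor families split, and most families held members that moved strongly in both directions. WRKY factors, regulators of stress and defence genes, had 19 higher and 12 lower of 35 tested, median log2 fold change 0.53. WRKY6 rose from 92.9 ± 5.76 to 436 ± 23.3 CPM (Bhs51_098V1.1; log2 fold change 2.23 ± 0.07, adjusted p = 6.02e-15), and WRKY3 fell from 67.7 ± 4.53 to 9.68 ± 1.21 CPM (Bhs934_008V1.1; log2 fold change -2.81 ± 0.12, adjusted p = 6.63e-13). WRKY transcripts together made up 0.0928 ± 0.00511% to 0.204 ± 0.00508% of CPM. Further increases in this family include a WRKY30 match at 18.3 to 281 CPM (Bhs4_149V1.1; log2 fold change 3.94 ± 0.11) and further decreases a WRKY44 match at 49.4 to 5.03 CPM (Bhs95_044V1.1; log2 fold change -3.29 ± 0.16); the pair was picked after the values were seen. 

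NAC factors, which include regulators of senescence and drought genes, had 13 higher and 7 lower of 26 tested, median log2 fold change 0.65. The member with the highest CPM to rise by 2-fold or more went from 28.04 ± 2.39 to 64.03 ± 5.97 CPM (Bhs574_015V1.1) and the one with the highest CPM to fall so, a NAC78 match, from 68.6 ± 6.31 to 31.97 ± 3.11 CPM (Bhs183_066V1.1). AP2/ERF factors had 21 higher and 15 lower of 51 tested, median log2 fold change 0.18. Ethylene response factor 11 rose from 52.05 ± 6.19 to 263 ± 35.8 CPM (Bhs2169_007V1.1; log2 fold change 2.34 ± 0.15), whereas SlAP2b fell from 24.5 ± 1.49 to 7.78 ± 0.171 CPM (Bhs2143_007V1.1; log2 fold change -1.65 ± 0.16). The C-repeat binding factor named above is spelled so in its description that the list's words did not find it.

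By count, other large families leaned lower. bHLH factors had 7 higher and 21 lower of 35 tested, median log2 fold change -0.57, homeodomain proteins 7 higher and 20 lower of 36 tested, median log2 fold change -0.41, and MYB factors 13 higher and 22 lower of 41 tested, median log2 fold change -0.64. Summed shares were lower at 70% RWC for bHLH and MYB factors, while that of homeodomain proteins went from 0.117 ± 0.00481% to 0.125 ± 0.00173% of CPM. The MYB list holds the guard cell marker MYB60, and the summed guard cell markers went from 34.8 to 40.2 CPM to 14.4 to 15.9 CPM, and their part in these counts was not tested. Within the MYB list, MYB44, a factor of the abscisic acid response in Arabidopsis, rose from 18.3 ± 2.298 to 96.7 ± 12.7 CPM (Bhs1239_024V1.1; log2 fold change 2.40 ± 0.19), and MYB185 fell from 152 ± 9.41 to 66.3 ± 11.1 CPM (Bhs119_047V1.1; log2 fold change -1.20 ± 0.11). The homeodomain protein HAT5 rose from 48.7 ± 1.67 to 206 ± 14.8 CPM (Bhs2520_001V1.1; log2 fold change 2.08 ± 0.07) while BEL1-like protein 2 fell from 72.7 ± 2.17 to 24.3 ± 4.15 CPM (Bhs7_130V1.1; log2 fold change -1.58 ± 0.11). Among bHLH genes, the at least 2-fold changes with the highest CPM were from 34.2 to 82.3 CPM (Bhs5337_014V1.1) and from 113 to 41.6 CPM (Bhs126_060V1.1).

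Among the remaining regulators, GRAS and GATA factors had 12 higher and 14 lower of 33 tested (median -0.07), bZIP factors 4 higher and 5 lower of 10 tested (median -0.11), and zinc fingers of the CCCH and C2H2 types 24 higher and 39 lower of 88 tested (median -0.25). The scarecrow-like factor SCL8, which rose, stood at 5.36, 6.102 and 6.91 CPM in the hydrated libraries and 186, 196 and 206 CPM at 70% RWC (Bhs862_033V1.1; log2 fold change 5.0 ± 0.13, adjusted p = 6.88e-16). A DELLA protein, a repressor of gibberellin responses, fell from 100.5 ± 6.35 to 44.5 ± 4.39 CPM (Bhs6531_002V1.1; log2 fold change -1.17 ± 0.08). In the bZIP list an anaerobic-type factor went from 0.232 to 1.05 CPM (Bhs1026_001V1.1) and another member from 25.8 to 8.44 CPM (Bhs992_029V1.1). Zinc finger proteins moved in both directions, from 140.4 to 295 CPM (Bhs4309_003V1.1) and from 142 to 70.7 CPM (Bhs5326_003V1.1).

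Genes of the circadian clock, day length and light perception had 7 higher and 13 lower of 22 tested, median log2 fold change -0.42. GIGANTEA, which acts in the clock and in flowering, stood at 169, 174 and 175 CPM in the hydrated libraries and 611, 567 and 583 CPM at 70% RWC (Bhs3094_001V1.1; log2 fold change 1.77 ± 0.06, adjusted p = 2.19e-14). LHY, a clock factor of the morning in Arabidopsis, stood at 639, 624 and 629 CPM in the hydrated libraries and 266, 269 and 261 CPM at 70% RWC (Bhs3794_003V1.1; log2 fold change -1.25 ± 0.06, adjusted p = 2.18e-12). Both separated the groups with no overlap, as the rule that chose them required, and they moved in opposite directions. Cryptochrome 1.1, a blue light receptor, fell from 508 ± 21.5 to 214 ± 5.35 CPM (Bhs649_057V1.1), and APRR5, a clock component that entered the cytokinin list by its wording, fell from 94.9 ± 12.5 to 40.7 ± 1.92 CPM (Bhs1115_008V1.1). Hour of sampling is not given for the samples, and its part in these values was not tested.

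Signalling lists held members with large changes in both directions. Mitogen-activated protein (MAP) kinase cascades, which relay stress signals, had 14 higher and 4 lower of 23 tested, median log2 fold change 0.38, with 2 members at least 2-fold higher and 3 at least 2-fold lower. A MAP kinase kinase kinase 2 match stood at 2.94, 3.12 and 3.97 CPM in the hydrated libraries and 318, 301 and 324 CPM at 70% RWC (Bhs3_127V1.1; log2 fold change 6.56 ± 0.11, adjusted p = 3.72e-18). MAP kinase 14 stood at 344, 364 and 369 CPM in the hydrated libraries and 120.2, 110.4 and 111 CPM at 70% RWC (Bhs53_047V1.1; log2 fold change -1.66 ± 0.06, adjusted p = 1.44e-13). The hydrated and dried libraries of both did not overlap, as the rule that chose them required, and the kinase kinase kinase stood at 5.23 ± 0.955 CPM at 10% RWC.

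Receptor-like kinases, which sense ligands at the cell surface, leaned lower, with 49 higher and 87 lower of 174 tested, median log2 fold change -0.46 and 66 at least 2-fold lower against 29 at least 2-fold higher. A receptor-like serine and threonine kinase rose from 24.7 ± 1.67 to 291 ± 19.5 CPM (Bhs222_029V1.1; log2 fold change 3.56 ± 0.08), and a leucine-rich repeat receptor kinase fell from 263 ± 30.96 to 111 ± 1.43 CPM (Bhs3802_003V1.1; log2 fold change -1.25 ± 0.08). Calcium sensors and transporters had 41 higher and 37 lower of 97 tested (median 0.00). The kinase CIPK07, a partner of calcium sensors, rose from 225 ± 27.7 to 586 ± 17.4 CPM (Bhs1799_014V1.1; log2 fold change 1.38 ± 0.08) and stood at 1646 ± 70.1 CPM at 10% RWC. Calreticulin, which binds calcium and helps to fold proteins in the endoplasmic reticulum, fell from 1104 ± 137 to 329.7 ± 29.5 CPM (Bhs2_049V1.1; log2 fold change -1.74 ± 0.09).

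Energy sensing kinases related to yeast SNF1 had 5 higher and 5 lower of 13 tested (median 0.05). A regulatory subunit stood at 10.1, 9.37 and 10.4 CPM in the hydrated libraries and 295, 308 and 306 CPM at 70% RWC (Bhs1632_008V1.1; log2 fold change 4.92 ± 0.09, adjusted p = 7.27e-18), and a catalytic subunit fell from 8.65 ± 2.36 to 3.06 ± 0.497 CPM (Bhs32_059V1.1; log2 fold change -1.50 ± 0.23). The 2 subunits moved apart, and the list as a whole has no direction. Its count of lower members was 3 without hydrated replicate 3, without 70% RWC replicate 1 or without 70% RWC replicate 2.

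Jasmonate and oxylipin synthesis had the highest share of members called lower among the hormone lists. It had 2 higher and 12 lower of 15 tested, median log2 fold change -0.60, and its transcripts went from 0.148 ± 0.00148% to 0.06603 ± 0.000391% of CPM. Lipoxygenases start the pathway from fatty acids, and the one with the highest CPM fell from 354 ± 11.1 to 78.8 ± 3.52 CPM (Bhs2748_005V1.1; log2 fold change -2.17 ± 0.07, adjusted p = 2.20e-14). Both allene oxide cyclases, which act next but one, fell, from 96.8 to 9.18 CPM (Bhs161_002V1.1) and from 100.1 to 25.7 CPM (Bhs263_001V1.1). Of 4 allene oxide synthases 3 fell, and the sole one to rise went from 37.01 ± 1.99 to 157 ± 3.105 CPM (Bhs198_043V1.1; log2 fold change 2.09 ± 0.07, adjusted p = 1.18e-14). Of 3 oxophytodienoate reductases 2 fell and 1 rose, from 31.3 to 47.4 CPM (Bhs2663_005V1.1). Of 6 lipoxygenases 5 fell, and lipoxygenase 6 stood at 34.7 to 39.7 CPM without passing the test (Bhs401_035V1.1; 0.19 ± 0.10, adjusted p = 0.0859).

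Auxin genes, tied to growth, had 15 higher and 42 lower of 70 tested, median log2 fold change -0.62. An auxin-induced beta-glucosidase fell from 1539.9 ± 73.9 to 598 ± 33.6 CPM (Bhs2730_004V1.1; log2 fold change -1.36 ± 0.07), whereas an auxin transport protein rose from 305 ± 6.07 to 877 ± 61.8 CPM (Bhs20_059V1.1; log2 fold change 1.52 ± 0.07). Gibberellin genes had 5 higher and 8 lower of 18 tested (median -0.23), while the list's summed share went from 0.0621 ± 0.00111% to 0.09002 ± 0.00139% of CPM. In that list a chitin-inducible gibberellin-responsive protein stood at 27.7, 28.7 and 27.8 CPM in the hydrated libraries and 482, 478 and 474 CPM at 70% RWC (Bhs1599_017V1.1; log2 fold change 4.09 ± 0.08, adjusted p = 3.46e-17) and was at 20.01 ± 3.197 CPM at 10% RWC. A gibberellin 3-oxidase, which makes active hormone, fell from 12.8 to 2.36 CPM (Bhs359_009V1.1; log2 fold change -2.43 ± 0.22), and a gibberellin 2-oxidase, which inactivates it, rose from 0.181 to 4.93 CPM (Bhs17863_001V1.1; log2 fold change 4.62 ± 0.43). These oxidases were picked after their values were seen.

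Ethylene synthesis and signalling had 3 higher and 6 lower of 14 tested, median log2 fold change -0.22, and the sole called change of 2-fold or more was a gene of aminocyclopropane carboxylate metabolism, with 0 hydrated reads and 4.17, 3.22 and 4.42 CPM at 70% RWC (Bhs1022_030V1.1). Cytokinin genes had 8 higher and 6 lower of 17 tested (median 0.26), among which cytokinin-regulated kinase 1 rose from 1.57 ± 0.319 to 153 ± 4.02 CPM (Bhs387_042V1.1; log2 fold change 6.59 ± 0.14, adjusted p = 5.58e-17). Brassinosteroid and strigolactone genes had 2 higher and 0 lower of 5 tested (median 0.14), with a brassinosteroid receptor kinase precursor rising from 7.097 ± 1.44 to 37.1 ± 2.54 CPM (Bhs29_019V1.1; log2 fold change 2.38 ± 0.14).

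In central carbon metabolism the tricarboxylic acid cycle, which oxidises carbon in mitochondria, leaned higher with 16 higher and 6 lower of 26 tested, median log2 fold change 0.50 and went from 0.2996 ± 0.01295% to 0.475 ± 0.0203% of CPM. Aconitase rose from 399 ± 9.98 to 1098 ± 29.8 CPM (Bhs1945_008V1.1; log2 fold change 1.46 ± 0.06, adjusted p = 2.34e-13). A succinate dehydrogenase gene rose from 3.12 ± 0.575 to 214 ± 8.31 CPM (Bhs8772_001V1.1; log2 fold change 6.08 ± 0.11), an isocitrate dehydrogenase from 79.8 to 488 CPM (Bhs1655_046V1.1), and an E1 alpha subunit of pyruvate dehydrogenase from 45.7 to 335 CPM (Bhs1173_009V1.1). These 3 were picked for their size. Of the 6 lower members 4 were also pyruvate dehydrogenase subunits, the one with the highest CPM to fall by 2-fold or more going from 107 ± 4.14 to 24.8 ± 1.998 CPM (Bhs146_043V1.1; log2 fold change -2.11 ± 0.10). Pyruvate dehydrogenase occurs in mitochondria and in plastids, and the descriptions do not separate the forms.

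The mitochondrial respiratory chain moved the same way in small steps, with 21 higher and 3 lower of 41 tested, median log2 fold change 0.37, and 3 members at least 2-fold higher. The deposited GO term of the same name had fewer calls, 10 higher and 6 lower of 36, of which the share called higher (27.8%) was below the 34.6% of all tested genes. An NADH:ubiquinone oxidoreductase match rose from 74.5 ± 7.804 to 153 ± 15.6 CPM (Bhs2150_014V1.1), and a putative NADH dehydrogenase fell from 90.8 ± 18.8 to 18.9 ± 2.63 CPM (Bhs113_039V1.1). Glycolysis and fermentation had 22 higher and 25 lower of 58 tested (median -0.08). Its cytosolic dehydrogenase, glyceraldehyde-3-phosphate dehydrogenase C, rose from 509.5 ± 53.05 to 1523 ± 101 CPM (Bhs1181_006V1.1; log2 fold change 1.58 ± 0.08, adjusted p = 6.39e-12), while the plastid form B fell as given above.

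Starch and sugar conversion moved gene by gene. Starch turnover had 10 higher and 9 lower of 23 tested (median -0.18), trehalose metabolism 5 higher and 3 lower of 10 tested (median 0.49). Beta-amylase 1, which breaks starch down, rose from 591 ± 23.1 to 1713 ± 83.5 CPM (Bhs866_005V1.1; log2 fold change 1.54 ± 0.07, adjusted p = 1.16e-12). A sucrose phosphate synthase, the enzyme of sucrose synthesis, stood at 63.1, 56.5 and 57.8 CPM in the hydrated libraries and 975, 971 and 983 CPM at 70% RWC (Bhs998_002V1.1; log2 fold change 4.04 ± 0.07, adjusted p = 3.00e-18). Trehalose-6-phosphate synthases rose from 8.295 to 29.8 CPM (Bhs2141_011V1.1) and fell from 167 to 80.6 CPM (Bhs146_026V1.1). In the peroxisome and fatty acid oxidation list (12 higher and 8 lower of 33 tested (median 0.08)), a ketoacyl-CoA thiolase of fat breakdown rose from 125 ± 3.15 to 371 ± 37.1 CPM (Bhs39_058V1.1; log2 fold change 1.56 ± 0.07), and glycolate oxidase of photorespiration fell from 1999.5 ± 119.7 to 495 ± 2.86 CPM (Bhs146_041V1.1; log2 fold change -2.01 ± 0.06).

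Amino acid synthesis leaned lower, with 11 higher and 29 lower of 47 tested, median log2 fold change -0.40. Against this, asparagine synthetase 1, which stores nitrogen as asparagine, stood at 253, 228 and 227 CPM in the hydrated libraries and 1823, 1893 and 1886 CPM at 70% RWC (Bhs3371_003V1.1; log2 fold change 2.98 ± 0.07, adjusted p = 1.06e-16). Mitochondrial serine hydroxymethyltransferase, a photorespiratory enzyme, fell from 1295 ± 79.9 to 230.3 ± 0.70004 CPM (Bhs2380_003V1.1; log2 fold change -2.49 ± 0.07). Glutamate decarboxylase makes the stress metabolite gamma-aminobutyrate, and one gene stood at 12.5, 11.9 and 12.9 CPM in the hydrated libraries and 1014, 989 and 986 CPM at 70% RWC (Bhs1940_033V1.1; log2 fold change 6.32 ± 0.08, adjusted p = 1.79e-19) while another fell from 171 ± 5.83 to 44.8 ± 6.07 CPM (Bhs1_069V1.1; log2 fold change -1.94 ± 0.09). Amino acid breakdown as a whole had 7 higher and 6 lower of 16 tested (median -0.06), and polyamine metabolism 4 higher and 1 lower of 9 tested (median 0.41). The sole polyamine gene to fall, a spermine synthase, went from 20.8 to 1.79 CPM (Bhs2748_001V1.1), with reads over 22.7% of its model at 70% RWC.

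The lipid and carotenoid lists had more members lower than higher, with a few steep rises. Fatty acid synthesis and desaturation had 7 higher and 11 lower of 21 tested, median log2 fold change -0.39. The summed share of this list went from 0.154 ± 0.0056% to 0.209 ± 0.00365% of CPM, so it was higher although more members were lower. Delta-8 sphingolipid desaturase, which shapes the long-chain bases of membrane sphingolipids, stood at 61.6, 67.1 and 58.1 CPM in the hydrated libraries and 616, 628 and 645 CPM at 70% RWC (Bhs22_075V1.1; log2 fold change 3.34 ± 0.08, adjusted p = 2.22e-16). A microsomal oleic acid desaturase rose from 19.1 ± 1.997 to 322 ± 21.7 CPM (Bhs222_059V1.1; log2 fold change 4.07 ± 0.09), and a chloroplast omega-3 desaturase fell from 108 ± 9.08 to 17.5 ± 2.98 CPM (Bhs112_008V1.1; log2 fold change -2.62 ± 0.11); this pair was picked after its values were seen. Stearoyl carrier protein desaturase fell from 157 ± 5.19 to 64.8 ± 1.32 CPM (Bhs1125_028V1.1).

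Carotenoid and terpenoid synthesis had 9 higher and 20 lower of 37 tested, median log2 fold change -0.25, and its transcripts went from 0.634 ± 0.0152% to 0.273 ± 0.00213% of CPM. Carotenoid cleavage dioxygenase 4, which degrades carotenoids, stood at 1601, 1949.7 and 1799 CPM in the hydrated libraries and 119, 146 and 145 CPM at 70% RWC (Bhs358_011V1.1; log2 fold change -3.70 ± 0.09, adjusted p = 8.58e-16). A cleavage dioxygenase on the same scaffold stood at 3.96, 6.24 and 3.38 CPM in the hydrated libraries and 252, 310.4 and 320.05 CPM at 70% RWC (Bhs358_003V1.1; log2 fold change 6.02 ± 0.18, adjusted p = 1.03e-11) and was at 2.92 ± 1.19 CPM at 10% RWC. The pair moved in opposite directions within 1 scaffold. Geranylgeranyl reductase, which supplies the side chains of chlorophyll and tocopherol, fell from 1033 ± 78.2 to 75.96 ± 4.72 CPM (Bhs4002_004V1.1; log2 fold change -3.77 ± 0.08).

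Enzymes of specialised metabolism were mixed. Cytochrome P450 enzymes had 27 higher and 32 lower of 70 tested (median -0.02), and small-molecule glycosyltransferases 51 higher and 54 lower of 128 tested (median 0.03). CYP82A3 rose from 51.5 ± 2.18 to 609.8 ± 28.4 CPM (Bhs3702_007V1.1; log2 fold change 3.56 ± 0.08, adjusted p = 8.31e-17), and cinnamate 4-hydroxylase, an early step of phenylpropanoid synthesis, fell from 292 ± 6.402 to 95.5 ± 3.63 CPM (Bhs717_006V1.1; log2 fold change -1.61 ± 0.07). A glycosyltransferase of the 79B6 type fell from 303 ± 31.9 to 51.9 ± 6.76 CPM (Bhs8040_003V1.1; log2 fold change -2.54 ± 0.11).

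The thiol and redox list had 35 higher and 39 lower of 99 tested (median -0.08). Monodehydroascorbate reductase, which regenerates ascorbate, stood at 622, 575 and 582 CPM in the hydrated libraries and 2054, 1943 and 1943 CPM at 70% RWC (Bhs6432_001V1.1; log2 fold change 1.74 ± 0.06, adjusted p = 5.81e-14). A peroxiredoxin fell from 567 ± 9.88 to 238 ± 4.99 CPM (Bhs18813_001V1.1; log2 fold change -1.26 ± 0.06). Both changes were without overlap between the groups, as the rule that chose these genes required, and the list as a whole has no direction.

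Secretory peroxidases and laccases, which oxidise phenolics in the cell wall, had 3 higher and 10 lower of 13 tested, median log2 fold change -1.98, the lowest median of the 56 lists. The list's summed share went from 0.0486 ± 0.0004196% to 0.0488 ± 0.00387% of CPM, close to level, with losses in most members beside the gains of the laccases given below. The list took numbered peroxidases by name, so the secretory peroxidase with a large loss in CPM, given above, is not in it. All 8 numbered peroxidases fell. Peroxidase 2 stood at 151, 158 and 149 CPM in the hydrated libraries and 5.29, 5.12 and 5.597 CPM at 70% RWC (Bhs7950_001V1.1; log2 fold change -4.83 ± 0.10, adjusted p = 3.46e-17), peroxidase 21 went from 103 to 5.17 CPM (Bhs451_033V1.1), and peroxidase 3 from 45.3 to 2.602 CPM (Bhs2199_004V1.1). Of 5 laccases 2 fell, laccase 1 from 2.49 to 0.0491 CPM (Bhs1716_011V1.1) and a laccase precursor from 2.24 to 1.15 CPM (Bhs370_027V1.1). The 3 members that rose were laccase 14 genes side by side on 1 scaffold. The one with the highest CPM stood at 52.6, 48.1 and 50.9 CPM in the hydrated libraries and 400.5, 489.7 and 484 CPM at 70% RWC (Bhs649_092V1.1; log2 fold change 3.18 ± 0.10, adjusted p = 2.54e-14), and its neighbours went from 0.965 to 5.7002 CPM (Bhs649_090V1.1) and 0.278 to 0.765 CPM (Bhs649_091V1.1). Reads that match more than 1 of these neighbours are not in the unique counts. The xylem and secondary wall markers moved with the peroxidases, from a sum of 157 to 168 CPM to 55.2 to 60.9 CPM, and their part in the result was not tested.

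Sugar transporters leaned higher, with 15 higher and 7 lower of 27 tested, median log2 fold change 0.62 and 12 at least 2-fold higher against 5 at least 2-fold lower. They went from 0.117 ± 0.00471% to 0.607 ± 0.00394% of CPM. Beside the transporter with the largest CPM gain, a sucrose transporter rose from 48.9 ± 3.52 to 1365 ± 66.8 CPM (Bhs865_013V1.1; log2 fold change 4.80 ± 0.08, adjusted p = 3.68e-18), an ERD6-like transporter from 28.5 ± 3.39 to 387 ± 14.7 CPM (Bhs24_035V1.1) and the SWEET16 type, known in Arabidopsis at the vacuole membrane, from 2.05 ± 0.546 to 61.2 ± 5.88 CPM (Bhs3180_004V1.1). These 3 were picked after their values were seen. Another putative sugar transporter fell from 148 ± 2.53 to 69.3 ± 2.903 CPM (Bhs7921_003V1.1; log2 fold change -1.10 ± 0.07). The phloem marker rose beside them, from 3.41 to 7.54 CPM to 15.02 to 15.9 CPM, and its part was not tested.

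ABC transporters had 24 higher and 31 lower of 67 tested (median -0.29) and went from 0.456 ± 0.0236% to 0.661 ± 0.0119% of CPM, so fewer members were higher while the list's summed share was higher. ABC transporter C4 stood at 349, 356 and 351 CPM in the hydrated libraries and 2939, 3069.8 and 3104 CPM at 70% RWC (Bhs63_010V1.1; log2 fold change 3.11 ± 0.06, adjusted p = 2.56e-17). ABC transporter B11 fell from 201 ± 6.33 to 97.5 ± 1.67 CPM (Bhs2776_004V1.1). Amino acid, peptide and nitrate transporters had 24 higher and 31 lower of 66 tested (median -0.28). A peptide and nitrate transporter rose from 32.05 ± 3.92 to 213 ± 30.1 CPM (Bhs1722_001V1.1; log2 fold change 2.74 ± 0.17) and a nitrate transporter fell from 482 ± 42.9 to 99.04 ± 2.87 CPM (Bhs4205_002V1.1; log2 fold change -2.28 ± 0.07).

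Ion channels, pumps and exchangers had 47 higher and 33 lower of 103 tested, median log2 fold change 0.25. A vacuolar proton ATPase, which acidifies the vacuole, stood at 392, 386 and 380.4 CPM in the hydrated libraries and 835, 808 and 794 CPM at 70% RWC (Bhs3030_011V1.1; log2 fold change 1.07 ± 0.06, adjusted p = 1.14e-11). A plasma membrane proton ATPase, which powers uptake and cell expansion, stood at 535, 521 and 513 CPM in the hydrated libraries and 32.1, 29.3 and 27.7 CPM at 70% RWC (Bhs85_046V1.1; log2 fold change -4.14 ± 0.08, adjusted p = 9.68e-18). The proton pumps of the vacuole and of the cell surface named here thus moved in opposite directions.

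Of 8 autophagy genes, which form the vesicles that carry cell contents to the vacuole, 6 rose and none fell, with a median log2 fold change of 0.81. ATG9 stood at 45.98, 43.99 and 44.1 CPM in the hydrated libraries and 90.3, 92.2 and 89.3 CPM at 70% RWC (Bhs12_112V1.1; log2 fold change 1.02 ± 0.06, adjusted p = 1.72e-10). ATG7 rose from 26.7 ± 1.41 to 70.02 ± 2.11 CPM (Bhs45_009V1.1) and ATG5 from 20.4 ± 0.905 to 44.2 ± 2.11 CPM (Bhs4989_007V1.1), both of the conjugation system that attaches ATG8 to membranes. ATG101, ATG4 and beclin 1 rose by under 2-fold, from 12.03 to 21.2 CPM (Bhs2466_003V1.1), 11.9 to 20.9 CPM (Bhs16188_001V1.1) and 6.72 to 11.1 CPM (Bhs3559_004V1.1). The ATG8 genes themselves did not pass the test, at 26.1 to 24.8 CPM (Bhs6634_001V1.1; -0.07 ± 0.14, adjusted p = 0.656) and 34.6 to 33.8 CPM (Bhs3_130V1.1; -0.03 ± 0.10, adjusted p = 0.821).

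Vesicle trafficking had 60 higher and 8 lower of 97 tested, median log2 fold change 0.35 and went from 0.542 ± 0.0225% to 0.751 ± 0.01603% of CPM. VPS41, a tethering protein of transport to the vacuole, stood at 92.8, 93.2 and 86.8 CPM in the hydrated libraries and 359.6, 339 and 361 CPM at 70% RWC (Bhs4430_004V1.1; log2 fold change 1.96 ± 0.06, adjusted p = 1.00e-14). Most of the changes were small, with 19 members at least 2-fold higher and 3 at least 2-fold lower. The member with the highest CPM to fall by 2-fold, a RABC2a match, went from 4.55 ± 1.64 to 2.06 ± 0.263 CPM (Bhs3036_004V1.1).

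By count proteases leaned lower, with 20 higher and 41 lower of 79 tested, median log2 fold change -0.42. Their summed share was higher, going from 0.635 ± 0.0121% to 0.717 ± 0.0117% of CPM. A cysteine proteinase rose from 358 ± 22.7 to 1156 ± 65.04 CPM (Bhs8865_003V1.1; log2 fold change 1.69 ± 0.08, adjusted p = 1.96e-12) and stood at 3447 ± 314 CPM at 10% RWC. The cysteine protease Cp5 fell from 476 ± 112 to 127 ± 29.2 CPM (Bhs19_063V1.1; log2 fold change -1.90 ± 0.27). F-box proteins, which select proteins for ubiquitin tagging, had 42 higher and 26 lower of 93 tested, median log2 fold change 0.21. One rose from 52.7 ± 2.50002 to 146 ± 1.53 CPM (Bhs3344_009V1.1) and the tubby-like F-box protein 5 fell from 77.05 ± 5.83 to 20.4 ± 0.282 CPM (Bhs574_030V1.1).

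Plastid proteases and protein import had 15 higher and 17 lower of 39 tested (median -0.10). The chaperone ClpB rose from 66.2 ± 2.91 to 193 ± 13.5 CPM (Bhs1515_001V1.1; log2 fold change 1.54 ± 0.07). A translocon-associated protein, which belongs to the endoplasmic reticulum and entered this list by its wording, fell from 779 ± 115 to 12.96 ± 2.04 CPM (Bhs741_026V1.1; log2 fold change -5.91 ± 0.13), with reads over 23.99% of its model at 70% RWC.

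Genes of DNA replication, histones and the cell cycle leaned lower, with 28 higher and 58 lower of 148 tested, median log2 fold change -0.21. Cyclin U1-1 fell from 72.1 ± 9.95 to 19.8 ± 2.997 CPM (Bhs129_044V1.1; log2 fold change -1.87 ± 0.14), and the large subunit of replication protein A, which also acts in repair, rose from 37.4 ± 1.74 to 91.02 ± 2.98 CPM (Bhs115_011V1.1; log2 fold change 1.28 ± 0.07). Markers of dividing cells moved the same way, from a sum of 14.6 to 17.2 CPM to 8.49 to 10.5 CPM with 3 of 4 lower, and their part in the result was not tested. Histone H2B.2, described above, is a member that rose.

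Chromatin modifiers had 24 higher and 17 lower of 59 tested (median 0.05) and DNA repair 9 higher and 6 lower of 28 tested (median -0.02). A chromodomain helicase rose from 51.9 ± 5.83 to 144 ± 3.83 CPM (Bhs160_002V1.1) and a histone deacetylase fell from 19.5 to 9.59 CPM (Bhs4430_014V1.1). RAD23, which links repair to protein breakdown, rose from 88.7 ± 1.22 to 239 ± 11.3 CPM (Bhs3766_007V1.1), and a mismatch repair protein fell from 9.36 to 3.45 CPM (Bhs1301_019V1.1). In both lists most changes were under 2-fold. Without 70% RWC replicate 2, 10 chromatin modifiers were lower.

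Kinesins, myosins and microtubule proteins, which organise growth and transport in the cell, had 10 higher and 24 lower of 41 tested, median log2 fold change -0.79. The microtubule protein TORTIFOLIA1, needed for straight growth in Arabidopsis, stood at 148, 162 and 158 CPM in the hydrated libraries and 13.1, 12.4 and 14.7 CPM at 70% RWC (Bhs1784_015V1.1; log2 fold change -3.54 ± 0.09, adjusted p = 6.41e-16). A dynein light chain match rose from 65.8 ± 9.02 to 183 ± 11.7 CPM (Bhs212_021V1.1; log2 fold change 1.48 ± 0.09). Of this list 19 members were at least 2-fold lower and 5 at least 2-fold higher.

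Called changes in RNA handling genes were mostly under 2-fold. Of 63 splicing genes 33 were called neither way, as were 11 of 22 mRNA decay genes, while 70.5% of all tested genes were called. RNA helicases had 23 higher and 8 lower of 43 tested, median log2 fold change 0.26, of which 2 were at least 2-fold higher and none at least 2-fold lower. With scaling to total counts 15 helicases were higher. Splicing had 21 higher and 9 lower of 63 tested (median 0.16), nucleolus and ribosome assembly 18 higher and 11 lower of 41 tested (median 0.14), and mRNA decay 5 higher and 6 lower of 22 tested (median 0.04). Some deposited GO terms near these lists leaned lower. Ribonucleoprotein complex biogenesis had 5 higher and 29 lower of 47, and RNA binding 12 higher and 34 lower of 81. RNA processing was near even, with 14 higher and 12 lower of 49. A helicase of the DEAD-box type, number 46, rose from 102 ± 2.39 to 243 ± 9.65 CPM (Bhs1655_047V1.1), and a splicing helicase from 60.2 ± 4.55 to 130.2 ± 5.65 CPM (Bhs401_030V1.1). Pumilio 1, an RNA-binding protein, rose from 69.97 ± 4.51 to 375 ± 14.5 CPM (Bhs4929_005V1.1; log2 fold change 2.42 ± 0.07).

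Against these, a splicing factor fell from 64.4 to 25.1 CPM (Bhs13_117V1.1), a small nucleolar RNA-associated protein from 46.7 to 20.97 CPM (Bhs19_015V1.1), and CAF1-7, a deadenylase of mRNA decay, from 185 ± 3.91 to 77.4 ± 4.02 CPM (Bhs33_045V1.1). Pentatricopeptide repeat proteins, which process RNA in organelles, had 52 higher and 70 lower of 239 tested (median -0.04). The 2-fold changes with the highest CPM among them were from 12.8 to 28.01 CPM (Bhs2041_020V1.1) and from 188 to 90.9 CPM (Bhs741_020V1.1). Of these repeat genes 117 were called neither way.

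Translation factors had 32 higher and 19 lower of 70 tested, median log2 fold change 0.15. The initiation factor eIF-2B rose from 57.1 ± 1.87 to 122 ± 2.37 CPM (Bhs141_046V1.1; log2 fold change 1.10 ± 0.07), and chloroplast elongation factor G stood at 1258, 1074 and 1114 CPM in the hydrated libraries and 322, 304 and 302 CPM at 70% RWC (Bhs3841_001V1.1; log2 fold change -1.89 ± 0.07, adjusted p = 1.32e-13). The list went from 1.06 ± 0.0652% to 0.829 ± 0.0355% of CPM, so its summed share was lower although more members were higher. Aminoacyl-tRNA synthetases, which load tRNAs with amino acids, had 5 higher and 18 lower of 33 tested, median log2 fold change -0.25, and a threonyl-tRNA synthetase fell from 206 ± 17.4 to 57.7 ± 5.7999 CPM (Bhs62_008V1.1; log2 fold change -1.84 ± 0.09).

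Defence and pathogenesis-related proteins had 35 higher and 31 lower of 87 tested (median -0.05) and went from 1.21 ± 0.0388% to 2.19 ± 0.0377% of CPM. Pathogenesis-related protein 10, given above, is among the members that rose. The member with the highest CPM to fall, matched to a bacterial polymyxin resistance protein of the ArnA type, went from 986 ± 74.9 to 334 ± 23.05 CPM (Bhs8119_001V1.1; log2 fold change -1.56 ± 0.07). Its place in this list rests on the wording of the match.

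The deposited GO columns gave 3 sets of terms with 20 to 500 tested genes, 37 for cell components, 88 for molecular functions and 112 for processes. The terms with the highest shares of called genes repeated parts of the word lists and added others. Toward higher levels, Golgi apparatus part had 16 higher and 3 lower of 25, protein targeting 26 higher and 7 lower of 43, intracellular transport 19 higher and 4 lower of 32, and endomembrane system 24 higher and 6 lower of 45. Among energy terms some leaned the same way, with 14 higher and 4 lower of 21 for aerobic respiration, 14 higher and 3 lower of 20 for energy-coupled proton transport, and 15 higher and 6 lower of 24 for hexose metabolism. Other energy terms, added here beside the named ones, did not, with 13 higher and 24 lower of 47 for generation of precursor metabolites and energy and 8 higher and 10 lower of 22 for hydrogen transport. Phosphoprotein phosphatase activity, the removal of phosphate from proteins, had 42 higher and 16 lower of 78. The racemases and epimerases acting on carbohydrates had 13 higher and 5 lower of 21 with a median log2 fold change of 0.81, and thiolester hydrolases 13 higher and 3 lower of 20.

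Toward lower levels, terms of the cell surface had high shares. Genes anchored to the membrane had 33 lower and 7 higher of 43, the extracellular region 95 lower and 23 higher of 141, and the cell wall 76 lower and 30 higher of 121. Receptor signalling linked to enzymes had 34 lower and 6 higher of 48, microtubule-based process 23 lower and 3 higher of 32, and antioxidant activity 27 lower and 6 higher of 37. Fatty acid biosynthesis had 30 lower and 9 higher of 42, porphyrin biosynthesis 19 lower and 5 higher of 27, and plastid stroma 175 lower and 50 higher of 276. The large ribosomal subunit had 26 lower and 3 higher of 42 with a median of only -0.30, so many of its genes fell by small amounts. Terms near it, added here beside the named ones, varied. Small ribosomal subunit had 8 lower and 0 higher of 22, and ribosome 24 lower and 18 higher of 54. Ribonucleoprotein complex had 88 lower and 20 higher of 190, and translation 39 lower and 45 higher of 115. Terms share genes with each other and with the word lists, and the counts are not independent.

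**Figure D4:**
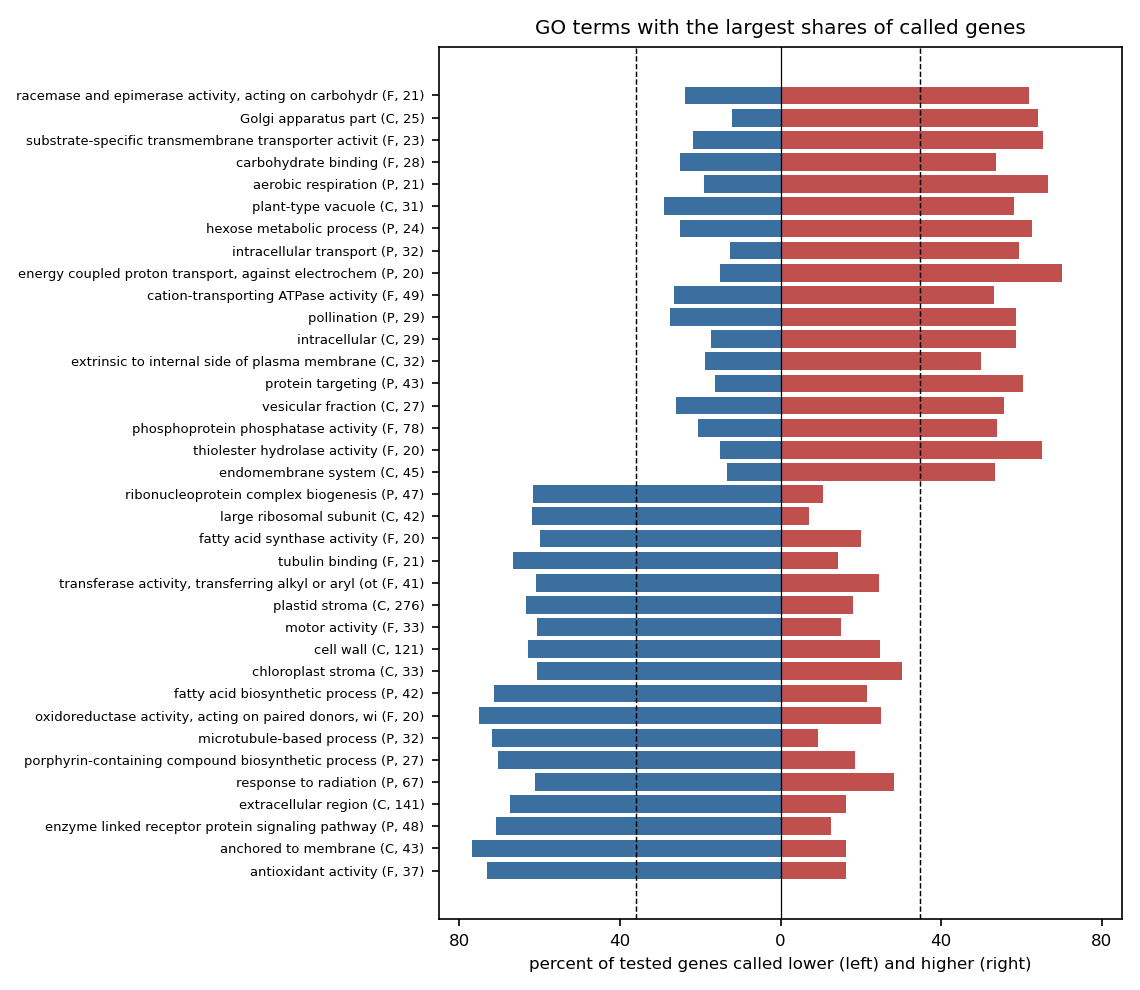
Percent of tested genes called lower (bars to the left) and higher (bars to the right) at 70% RWC in the 36 named GO terms, with the branch (C component, F function, P process) and the number of tested genes in brackets, sorted by median log2 fold change. Dashed lines mark the percent of all tested genes, 35.9% lower and 34.6% higher, and the terms with the highest shares were energy-coupled proton transport on the right and membrane-anchored genes on the left.

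Descriptions whose genes moved one way at 70% RWC outnumbered those whose genes parted. Among descriptions shared by 2 to 6 tested genes there were 1101, covering 2631 genes. Of these, 310 had at least 2 members changed 2-fold or more, and in 210 all such members moved one way, while in 100 they moved both ways. Over all tested genes, 15.1% were at least 2-fold higher and 20.5% lower. No share for genes with unlike descriptions was set beside these counts, so they do not show a trait of shared descriptions. In 34 descriptions at least 1 member rose and another fell by 4-fold or more, a rule chosen after values were seen. A shared description names the best match alone, so the members can differ in function.

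The large subunit of ADP-glucose pyrophosphorylase, which commits sugar to starch synthesis, had one gene that fell from 489 ± 21.95 to 119.6 ± 2.97 CPM (Bhs198_028V1.1; log2 fold change -2.03 ± 0.07) and one that rose from 26.6 ± 2.03 to 565 ± 13.1 CPM (Bhs168_039V1.1; log2 fold change 4.41 ± 0.07, adjusted p = 2.84e-18). A further pair on these 2 scaffolds, of chloroplast allene oxide synthase, fell from 41.6 ± 0.401 to 8.75 ± 2.07 CPM (Bhs168_056V1.1) and rose from 37.01 ± 1.99 to 157 ± 3.105 CPM (Bhs198_043V1.1). Each scaffold thus carried a copy that rose and a copy that fell.

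Caleosins, proteins of the oil body surface, were neighbours in the gene numbering, and one rose from 32.6 ± 0.989998 to 1264 ± 35.97 CPM (Bhs39_021V1.1; log2 fold change 5.28 ± 0.07, adjusted p = 2.96e-19) while the next fell from 25.9 ± 3.84 to 1.49 ± 0.232 CPM (Bhs39_022V1.1; log2 fold change -4.11 ± 0.23, adjusted p = 2.52e-11). Phospholipase D, which cleaves membrane phospholipids, had a gene that fell from 349 ± 13.9 to 49.5 ± 1.22 CPM (Bhs3093_005V1.1) and one that rose from 46.5 ± 4.69 to 496 ± 17.4 CPM (Bhs3997_016V1.1). Pectinesterase 34, a pectin-modifying enzyme, fell from 246 ± 25.9 to 19.9 ± 1.99 CPM (Bhs1115_028V1.1) in one gene and rose from 21.2 ± 3.22 to 1233 ± 197 CPM (Bhs1456_002V1.1) in another. In every pair named here the libraries of the 2 states did not overlap for either gene. These genes were chosen for large changes, and 72.8% of all tested genes did not overlap.

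**Figure D5:**
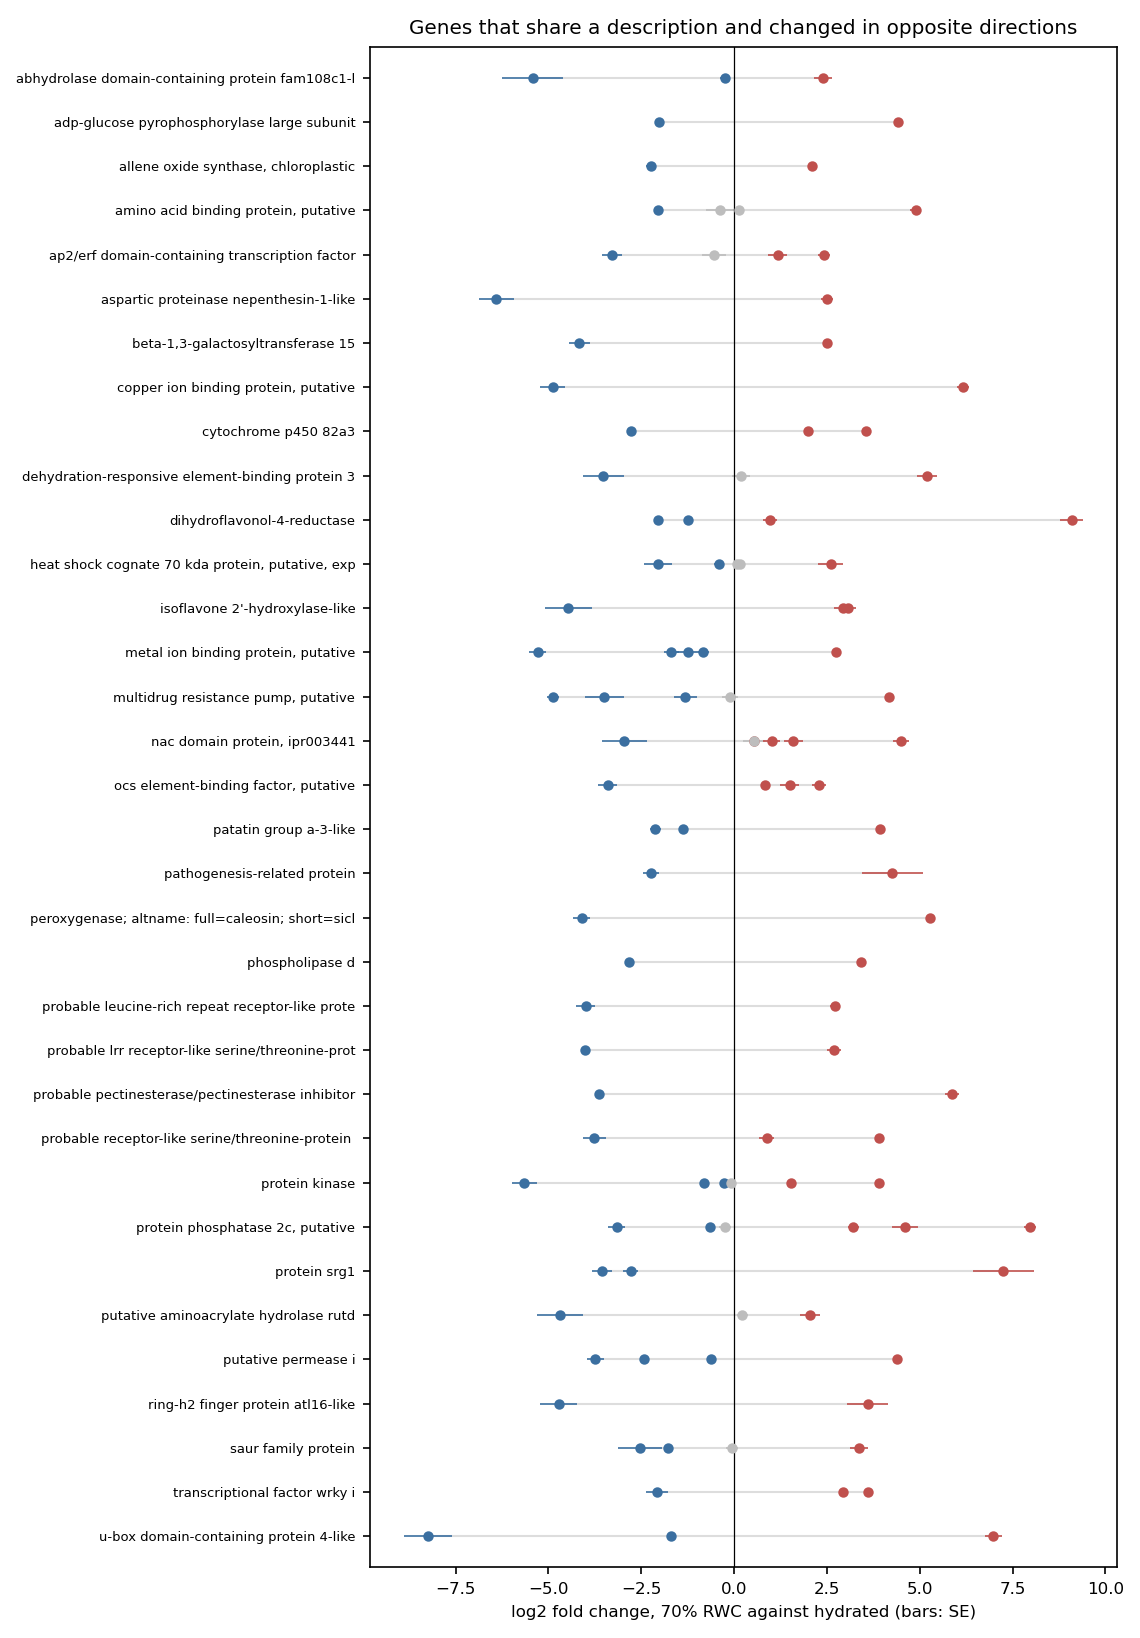
Log2 fold change at 70% RWC against hydrated leaves (x axis, bars give the SE) of all tested genes of the 34 descriptions in which at least 1 gene rose and another fell by 4-fold or more; each row is a description and each point a gene, blue for called lower, red for called higher and grey for not called. The rows run from pairs, such as the ADP-glucose pyrophosphorylase large subunits at -2.03 and 4.41, to groups of up to 6 genes with members at both ends.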

How the data were processed

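RNA from leaf tissue was sequenced, per the labels' protocols, after Trizol extraction and standard Illumina library preparation. Each library's deposited table holds, per the file headers, the count of reads that the authors aligned to 1 gene alone and the percent of that gene's length under reads. Strandedness, assembly version, counting tool and aligner are not given in the sources used here. The models hold coding sequence alone (100% of lengths are multiples of 3), and names are those of best database matches in the deposited files. Genes missing from a library's file were set to 0 reads. The authors' deposited table of comparisons was not used.

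Counts of all 9 libraries were fitted with edgeR 4.0.16 under R 4.3.3 (scaling by TMM, filterByExpr, robust quasi-likelihood fit, 1 mean per water state), contrasting 70% RWC with hydrated leaves, with Benjamini-Hochberg adjustment over the 14585 of 24182 genes that passed the filter and a threshold of 0.05. Log2 fold changes are those of the edgeR fit at its default prior count. Errors beside them, termed SE, are the absolute log2 fold change over the square root of the test's F statistic. A prior count of 2 entered only the log CPM of the check of replicate numbers below. Intervals and floors (3 reads over a group) cover counting error alone, at 95% for intervals.

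Genes were named, among those called, with an informative description, no overlap between groups and outside the list of best-known protective and photosynthesis genes, as the 8 largest gains and losses in CPM, the 10 largest and 10 smallest log2 fold changes among genes that reached 20 CPM in one group, the member of each list with the highest CPM called at least 2-fold in each direction, the 6 genes with the highest CPM and 0 reads in either state, and the 2 largest gains and losses without informative description. This gave 151 genes. Others are said to be picked after their values were seen, or belong to a list given in full. The 6 GO terms with the largest share per branch and direction were taken, leaving out terms that overlapped a term already taken and terms on photosynthesis and water deprivation. Members and lists were chosen with earlier results of these data known.

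Replicate numbers were checked as pairs. Deviations from the group means correlated at r = 0.293, 0.103 and 0.102 across the 14585 genes for libraries with the same number. The rule used (every r over 0.1) was thus met. Hydrated replicate 2 correlated more with replicate 3 at 70% RWC, at 0.141, than with replicate 2 there, at 0.103. These values therefore do not settle whether the numbers pair the samples. No label states what the numbers share. The reported fit leaves them out, and the counts with them as a block are given below. Alternatives were other scalings, other filters, DESeq2 1.42.0, the 6 libraries alone, a replicate block, leaving out each library, and replicates 2 and 3 alone or summed as 1.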

Additional observations from a re-analysis of the deposited data

How the results depend on the processing

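The number of called genes stayed within 1.5 times the reported 10284 under all 15 alternatives. It was 9843 to 10207 when 1 library was left out, 9868 with DESeq2, 10160 with scaling to total counts and 10986 without a filter on low counts. With the replicate number as a block, 10928 genes were called, 5372 higher and 5556 lower, and the block changed the call of no named gene. Genes higher numbered 4380 with total counts and 5229 with replicates 2 and 3 alone, against 5043 reported, and genes lower 5780 and 5353, against 5241. With 1 library left out, 4813 to 5003 genes were higher, 5028 to 5204 lower, and 5221 to 5350 changed at least 2-fold. Replicates 2 and 3 summed as 1 sample gave 9608 calls, with 4606 higher and 5002 lower. All 151 named genes were called in the same direction in every alternative that gave a value. Of the counts of list members, 1665 stayed within 1.5 times and 15 did not, in the lists of cytokinin, brassinosteroid and strigolactone, energy kinases, polyamines, chromatin modifiers, nucleolus, RNA helicases and mRNA decay.

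Depth limits the low end. A gene with 0 reads in 3 libraries is bounded by 3 reads over the group, and folds of such genes are lower bounds. Alike replicates 2 and 3 would make p-values too small if they share plants or RNA, which was not tested. Unique counts leave out reads that match several near-identical genes.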

Other observations

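Genes were also described by what is known of them and by their place. Of 442 tested genes with no database match, 75 were at least 2-fold higher and 82 at least 2-fold lower, 16.97% and 18.6%, beside 15.1% and 20.5% of all tested genes. Of 7973 genes with an informative description, 15.3% were at least 2-fold higher and 20.9% lower. The genes without a match were short and had few reads, with a median coding length of 387 bases against 1170 bases over all tested genes and a median of 2.36 CPM against 21.2 CPM.

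Coding length went with the direction of small changes. Genes were split by coding length into 4 groups of about equal number. In the group with the shortest coding sequence 16.3% were at least 2-fold higher and 20.8% at least 2-fold lower, and in the longest 12.2% and 18.1%. The median log2 fold change was -0.07 in the shortest group and 0.05 in the longest. CPM, which also rises with length itself, differed as well, with a median of 9.92 CPM in the shortest group and 37.1 CPM in the longest, and their part was not tested.

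Neighbouring genes on a scaffold moved the same way a little more often than distant ones. Among adjacent tested genes that both changed at least 2-fold, 895 of 1551 pairs (57.7%) moved in the same direction. The share was 53.2% for genes 2 places apart, 52.6% at 5 places and 50.6% at 10 places. Leaving out pairs whose descriptions begin with the same words gave 57.2% for adjacent genes. Members of a gene family that are worded otherwise stayed in. Pairs on a scaffold share genes with each other and are not independent, so these shares are a description without a test.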
